A study of Mus musculus with 4 samples.

Results

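The genes described here are 9 that handle glutamine, asparagine, branched-chain amino acids and the carriage of amino acids across the plasma membrane, namely Glul, Asns, Bcat1, Bcat2, Slc7a5, Slc3a2, Slc7a11, Slc38a2 and Slc1a5. They were picked by name, and each was found once by its symbol among the 23282 genes of the count table. All 9 were abundant enough to test, of 13285 genes tested, with between 277 and 22412 reads per library. They were followed in C2C12 myotubes, the fused muscle fibres that this mouse myoblast line forms in culture, labelled as female skeletal muscle. Both groups had been deprived of steroids. One was then given vehicle and the other 1 µM dexamethasone, a synthetic glucocorticoid, for 2 h, with 2 libraries per group. RNA attached to chromatin was sequenced, a fraction that holds transcripts in the making, but their share of the counts was not measured.

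Glutamine synthetase, encoded by Glul, joins ammonia to glutamate, and muscle exports the product to the gut, kidney and immune cells. Branched-chain aminotransferases supply the glutamate by moving nitrogen from leucine, isoleucine and valine. Amino acid carriers set how much of each substrate enters or leaves the fibre, and several of them, like asparagine synthetase, are known targets of the transcription factor ATF4, which is made when amino acids run short. Glucocorticoids are known to raise glutamine synthetase in muscle and lung, where the hormone receptor acts on the Glul locus.

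A set of 3 promoters is shown because they carry the contrast that follows: Glul (ENSMUSG00000026473) had the largest difference between the groups, Slc7a11 the next largest, and Asns almost none. Each is the run of 250 bases that ends just before the RefSeq transcription start, on GRCm38.p6, written 5′ to 3′ on the gene's own strand, and capitals mark matches to a motif named after them. Glul lies on the plus strand at chr1:153899679-153899928, Slc7a11 on the minus strand at chr3:50443614-50443863 and Asns on the minus strand at chr6:7693210-7693459.
Glul: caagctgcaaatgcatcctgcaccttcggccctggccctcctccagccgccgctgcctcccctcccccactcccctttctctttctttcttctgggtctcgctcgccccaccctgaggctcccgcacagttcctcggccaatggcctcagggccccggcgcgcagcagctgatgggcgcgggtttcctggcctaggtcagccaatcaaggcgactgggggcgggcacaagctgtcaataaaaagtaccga
Slc7a11: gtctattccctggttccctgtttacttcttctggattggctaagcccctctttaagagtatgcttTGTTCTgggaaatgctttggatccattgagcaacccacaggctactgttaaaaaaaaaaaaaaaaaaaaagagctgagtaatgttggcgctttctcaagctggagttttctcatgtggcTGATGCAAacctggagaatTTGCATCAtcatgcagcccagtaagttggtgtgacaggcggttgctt
Asns: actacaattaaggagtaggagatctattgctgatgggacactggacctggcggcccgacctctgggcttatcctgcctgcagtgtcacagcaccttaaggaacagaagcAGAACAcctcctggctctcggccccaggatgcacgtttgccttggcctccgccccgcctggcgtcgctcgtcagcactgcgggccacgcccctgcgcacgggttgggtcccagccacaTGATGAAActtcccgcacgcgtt

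In all, 4 motifs were searched on both strands in the whole RefSeq window of 300 bases, which adds the first 50 transcribed bases. They were the glucocorticoid response element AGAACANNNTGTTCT, its relaxed form GNACANNNTGTNC, the half-site TGTTCT that lies inside the first of these, and the element TGATGNAA bound by C/EBP and ATF proteins. The tables gave 9 windows for 7 of the genes, and none was matched to Slc7a5 or Slc1a5. No window of the 7 genes held the full or the relaxed response element, which occurred in 0.00914% and 0.475% of all 32817 windows. One half-site stood in the Slc7a11 promoter, at positions -185 to -180 counted from the start, and one in that of Asns, at -141 to -136, where 19.0% of all windows had at least one. The C/EBP-ATF element was present in Slc7a11, once on each strand, at -66 to -59 and -47 to -40, and in Asns at -23 to -16, against 3.97% of all windows. The Glul promoter window held none of the 4 motifs. These are matches of letters in a short window, and the sequencing measured no binding there.

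The libraries held between 19631435 and 88596296 gene counts, so values in the second dexamethasone library rest on the most reads. Levels are given in CPM, read counts scaled to a common library size with TMM factors. All 12 myotube markers examined were tested, and their summed level was 124000 and 119000 CPM in the replicate 1 libraries (vehicle and dexamethasone) and 43300 and 42200 CPM in the replicate 2 libraries, most of it Ttn, the giant sarcomere spring. The 8 genes listed for dividing myoblasts, among them Pax7 of satellite cells and reserve cells, summed to between 46.3 and 63.9 CPM. Of 12 markers of blood, vessel, fat, epithelial and connective tissue cells 4 had enough counts to test and Epcam and Lum were at 0 throughout, with sums of 11.9 and 9.46 CPM in vehicle and 14.4 and 16.5 CPM in dexamethasone libraries. The steroid-receptor co-chaperone gene Fkbp5 rose from 21.5 ± 0.0889 to 857 ± 228 CPM (SD, n = 2 each; edgeR adjusted p = 0.0429). Tsc22d3, which encodes the leucine zipper protein GILZ, had 49.1 ± 23.2 CPM in vehicle and 322 ± 117 CPM in dexamethasone libraries (edgeR adjusted p = 0.213). Libraries with the same number resembled each other across genes, and the labels do not say whether replicates came from separate cultures, so that p-values measure the spread between these libraries, which may be technical.

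Glul (ENSMUSG00000026473) had the largest difference of the 9 genes, and it was higher with dexamethasone. Its level was 30.8 and 10.1 CPM with vehicle and 104 and 51.2 CPM with dexamethasone. Both dexamethasone libraries were above both vehicle libraries, and within each group the replicate 1 library was the higher. The fold change was 3.82 (95% interval 1.16 to 12.6), or 1.93 on the log2 scale (SE 0.649), and it was larger than that of 99.4% of all genes tested. Against vehicle of the same number the ratio was 3.38 in the replicate 1 pair and 5.04 in the replicate 2 pair. Over all genes this missed the threshold of 0.05 in edgeR's quasi-likelihood test (unadjusted p = 0.0346, adjusted p = 0.735).

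The spread between Glul libraries was wide beside its difference. Replicate 1 exceeded replicate 2 by 3.03 times in vehicle and 2.03 times in dexamethasone, more than in 97.7% and 95.8% of genes, and its SE was above that of 94.3% of genes. The summed myotube markers, most of that sum being Ttn, differed by replicate number in the same direction. Among the single markers Mymx was lower in replicate 1 in both groups, with 8.9 against 11.6 CPM in vehicle and 9.87 against 15.6 CPM in dexamethasone libraries. Mymk and Tnnt1 were not ordered by replicate number, and the rest were higher in replicate 1 in both groups. The part of these markers in the Glul values was not tested. Fewer fibres with an active gene and less RNA per fibre cannot be told apart in such bulk samples. Leaving out vehicle replicate 1, the library with the higher vehicle level, gave a log2 difference of 2.93, and leaving out vehicle replicate 2 or dexamethasone replicate 1 gave 1.34 each. As a share of the counts of the 9 genes, which no scaling between libraries can alter, Glul took 3.18% (95% Wilson interval 2.94% to 3.45%) and 1.07% (0.965% to 1.18%) in vehicle and 9.31% (9.0% to 9.62%) and 5.33% (5.19% to 5.48%) in dexamethasone libraries. These intervals cover counting error only, and none of the 4 overlaps another. The annotated exons of Glul share bases with Teddm2 on the opposite strand, which had at most 5 counts in any library. They also share 93 bases with Mir8114 on the same strand, for which no counts were listed.

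**Figure D1:**
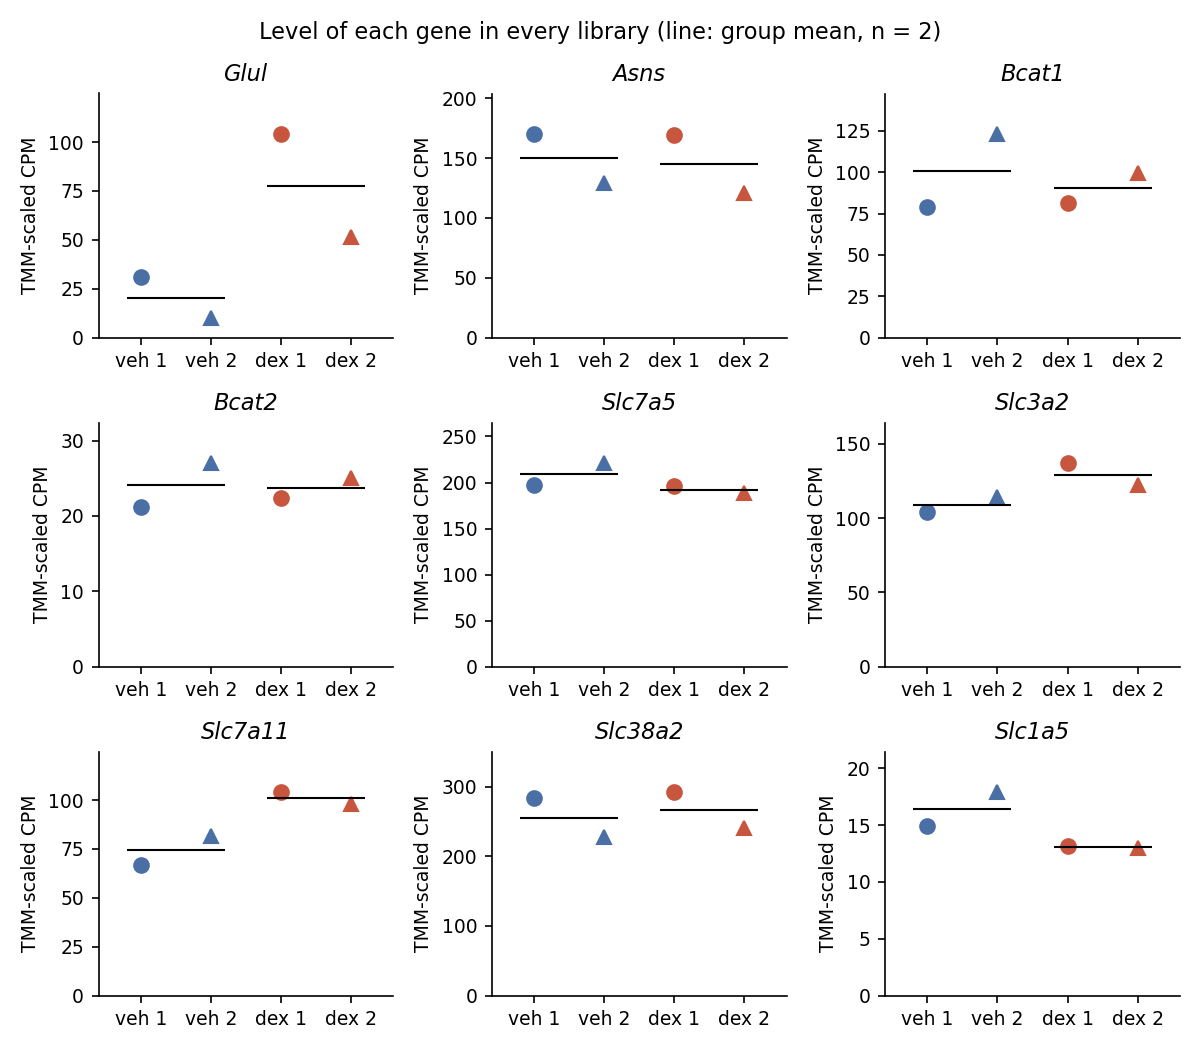
Level of each of the 9 genes in CPM scaled by TMM (vertical axes from 0) in every library, with vehicle in blue, dexamethasone in red, replicate 1 as circles, replicate 2 as triangles and the mean of each group (n = 2) as a line. Glul runs from 10.1 to 104 CPM with the groups apart, while Asns, Slc38a2, Bcat1 and Bcat2 are ordered by replicate number.

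Asns (ENSMUSG00000029752), which encodes the enzyme that makes asparagine from aspartate with glutamine as nitrogen donor, was level between the groups. It had 170 and 129 CPM in vehicle and 169 and 121 CPM in dexamethasone libraries, with the replicate 1 libraries higher in both groups by 1.32 and 1.39 times. The groups overlapped, and the fold change was 0.968 (95% interval 0.630 to 1.49; edgeR adjusted p = 1.00). Changes in either direction within that interval are compatible with these libraries, so Asns is not shown to be unchanged.

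The aminotransferases were likewise not separated by treatment. Bcat1 (ENSMUSG00000030268), the cytosolic enzyme, had 78.7 and 123 CPM in vehicle and 81.4 and 99.4 CPM in dexamethasone libraries, a fold change of 0.896 (95% interval 0.558 to 1.44; edgeR adjusted p = 1.00). Bcat2 (ENSMUSG00000030826), the mitochondrial enzyme that predominates in adult muscle, had 21.2 and 27.0 CPM in vehicle and 22.4 and 25.1 CPM in dexamethasone libraries, a fold change of 0.983 (0.700 to 1.38; edgeR adjusted p = 1.00). In both genes the replicate 2 libraries were above the replicate 1 libraries whatever the treatment, and the 2 replicate pairs pointed in opposite directions, with dexamethasone over vehicle at 1.03 and 0.809 for Bcat1 and at 1.06 and 0.928 for Bcat2. The ratio of Bcat1 to Bcat2 counts was 3.71 and 4.55 in vehicle and 3.63 and 3.97 in dexamethasone libraries, which overlap. Klf15, whose product is a transcription factor known to switch on branched-chain enzymes in muscle, had 5.47 and 8.14 CPM in vehicle and 18.7 and 21.9 CPM in dexamethasone libraries, a fold change of 2.96 (1.85 to 4.75; edgeR adjusted p = 0.209). Its libraries did not overlap between the groups, but the adjusted p missed 0.05.

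Among the carriers, the genes of both chains of the leucine carrier LAT1 had estimates of opposite sign, neither past the threshold. Slc7a5 (ENSMUSG00000040010) encodes its light chain, which exchanges glutamine for leucine and other large neutral amino acids. Its level was 197 and 221 CPM in vehicle and 196 and 189 CPM in dexamethasone libraries, a fold change of 0.918 (95% interval 0.726 to 1.16; edgeR adjusted p = 1.00). Slc3a2 (ENSMUSG00000010095) encodes the heavy chain 4F2hc, which brings several light chains to the cell surface, and it had 104 and 114 CPM in vehicle and 137 and 122 CPM in dexamethasone libraries, a fold change of 1.18 (0.929 to 1.51; edgeR adjusted p = 1.00). For Slc7a5 the dexamethasone libraries were the lower ones, if barely (196 against 197 CPM at the closest), and for Slc3a2 they were the higher ones. Scaled by library size only, the Slc7a5 libraries overlapped, while each of the other 8 genes stayed above, below or overlapping between the groups as it was under all 4 scalings tried.

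The ratio of the 2 chains needs no scaling. There were 1.90 and 1.94 Slc7a5 counts per Slc3a2 count with vehicle and 1.43 and 1.55 with dexamethasone. The groups were apart by more than the spread within either (1.92 ± 0.0288 against 1.49 ± 0.0818, SD, n = 2 each), but a two-sided exact permutation test of 2 libraries against 2 gave p = 0.333, the smallest this design allows. It was 1 of 6 such ratios computed, and 4 of the 6 gave this p.

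Slc7a11 (ENSMUSG00000027737) encodes xCT, the other light chain of Slc3a2 among these genes, which takes up cystine in exchange for glutamate. Its level was 66.9 and 81.4 CPM in vehicle and 104 and 98.2 CPM in dexamethasone libraries. The groups did not overlap, and dexamethasone was above vehicle by 1.55 times in the replicate 1 pair and 1.21 times in the replicate 2 pair. The fold change was 1.36 (95% interval 1.03 to 1.79), or 0.45 on the log2 scale (SE 0.150; edgeR unadjusted p = 0.0349, adjusted p = 0.738). Its counts per Slc3a2 count were 0.643 and 0.714 in vehicle and 0.761 and 0.805 in dexamethasone libraries.

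The remaining carriers bring in small neutral amino acids. Slc38a2 (ENSMUSG00000022462) encodes SNAT2, a sodium-coupled carrier of alanine and glutamine, and had the highest CPM of the 9 genes, 283 and 227 in vehicle and 292 and 240 in dexamethasone libraries. Its groups overlapped, the replicate 1 libraries were the higher in both, and the fold change was 1.04 (95% interval 0.747 to 1.46; edgeR adjusted p = 1.00). Slc1a5 (ENSMUSG00000001918) encodes ASCT2, a sodium-dependent exchanger of glutamine, and had the lowest mean vehicle CPM of the 9, with 14.9 and 17.9 in vehicle and 13.2 and 13 in dexamethasone libraries. Its groups did not overlap, dexamethasone being the lower, and the fold change was 0.800 (0.581 to 1.1; edgeR unadjusted p = 0.129, adjusted p = 1.00).

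**Figure D2:**
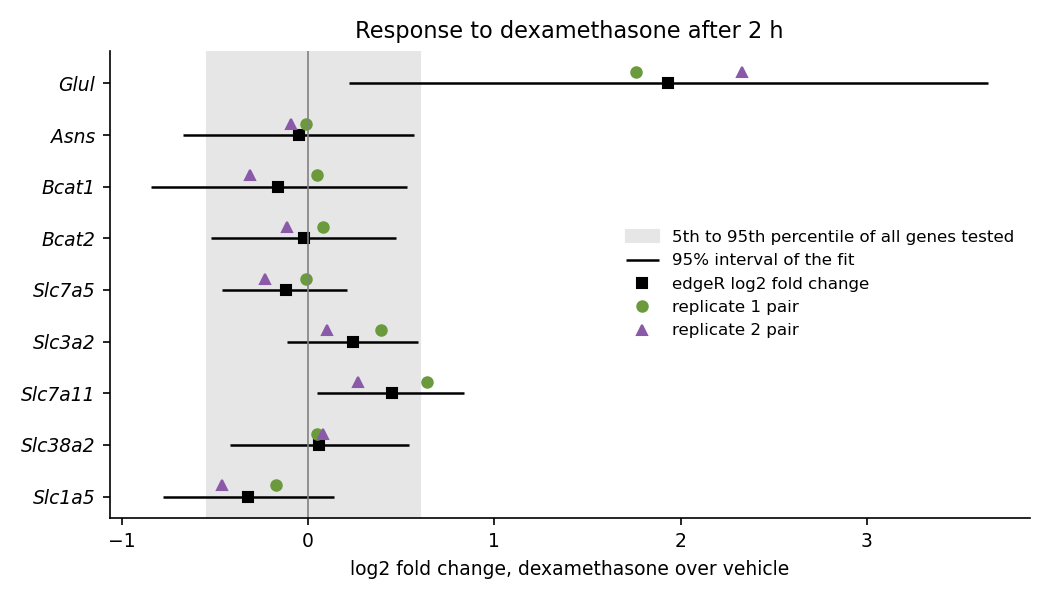
Log2 fold change of dexamethasone over vehicle for each of the 9 genes (squares) with the 95% interval of the edgeR fit (lines), beside the ratio within the replicate 1 pair (green circles) and the replicate 2 pair (purple triangles); the grey band holds the middle 90% of all genes tested, from -0.54 to 0.60. Glul at 1.93 is the only one of the 9 whose estimate lies outside the band, and the intervals of 7 of the 9 include 0.

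Counted together, 0 of the 9 genes were called higher and 0 lower at an edgeR adjusted p under 0.05, against 0.0376% and 0% of all genes tested (5 and 0 genes). At an unadjusted p under 0.05 there were 2 higher (Glul and Slc7a11) and 0 lower, where 4.09% and 1.69% of all genes were. DESeq2's Wald test, which called 1.77% of all genes higher and 0.399% lower, called 1 of the 9 higher, Glul (adjusted p = 0.0168), and 0 lower. The median log2 fold change of the 9 was -0.02, beside -0.002 over all genes, with 4 positive and 5 negative.

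The 9 genes fall into those ordered by treatment and those ordered by replicate number. In 3 (Glul, Slc3a2 and Slc7a11) both dexamethasone libraries were above both vehicle libraries and in 2 (Slc7a5 and Slc1a5) below, which over all genes held for 15.0% and 12.9%. In the other 4 the libraries separated by number: replicate 1 was above replicate 2 in both groups for Asns and Slc38a2 and below it for Bcat1 and Bcat2, as it was for 31.8% and 32.1% of all genes. With TMM scaling the enzymes other than Glul were thus ordered by replicate number. Of the 5 carriers 4 were ordered by treatment, Slc3a2 and Slc7a11 upwards and Slc7a5 and Slc1a5 downwards, and none of these was called. For Slc7a5 this was a narrow margin, and scaled by library size only it was ordered by replicate number instead. In 7 of the 9 genes both replicate pairs had the same sign, but for Slc7a5 and Asns the replicate 1 pair was at -0.01 on the log2 scale. The share of all genes with equal signs was not computed, so this count has nothing to be set against.

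**Figure D3:**
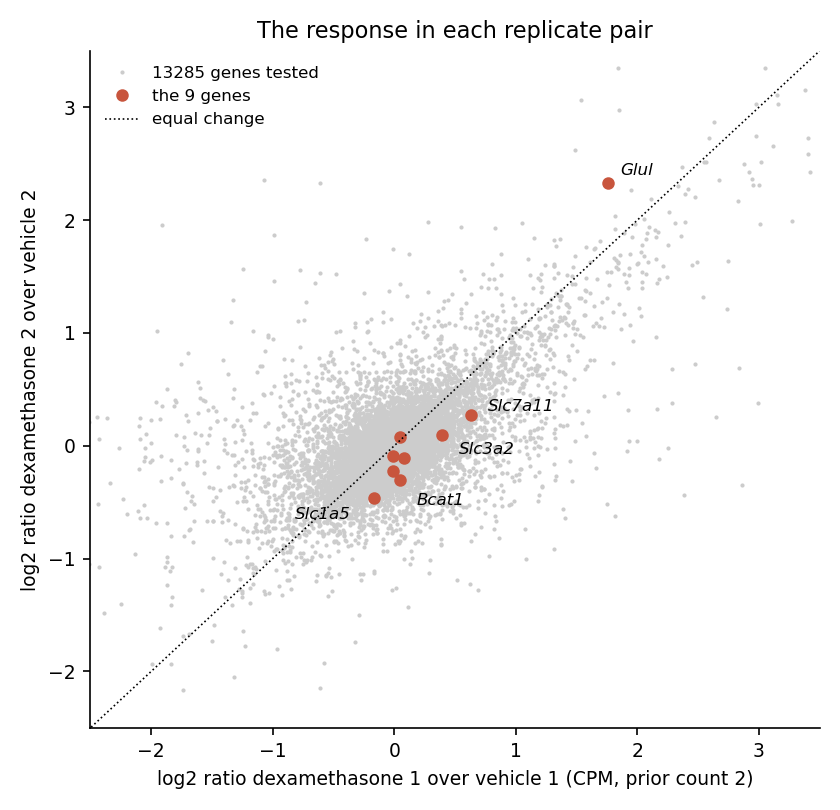
Log2 ratio of dexamethasone over vehicle in the replicate 1 pair (horizontal) against the replicate 2 pair (vertical), with 13216 of the 13285 tested genes in grey, 69 lying outside the axes, and the 9 genes in red. Glul is at 1.76 and 2.33, and the other 8 sit within 0.64 of 0 on both axes.

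**Figure D4:**
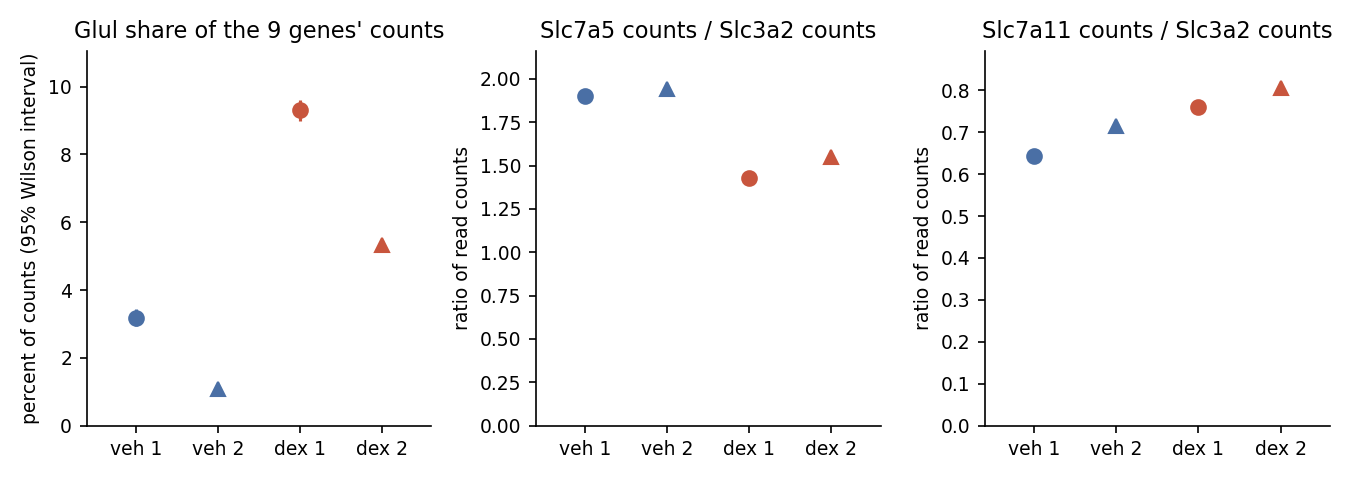
Quantities that need no scaling between libraries: the share of Glul in the summed counts of the 9 genes with its 95% Wilson interval (left), and counts of Slc7a5 (middle) and Slc7a11 (right) per count of Slc3a2, with vehicle in blue and dexamethasone in red. The Glul share and the Slc7a11 ratio are higher in both dexamethasone libraries, and the Slc7a5 ratio is lower, at 1.43 and 1.55 against 1.90 and 1.94.

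Levels were compared between genes per kb of annotated exon. In vehicle libraries the order was Slc7a5 (56.4 ± 4.52 CPM per kb, SD, n = 2), Asns (54.8 ± 10.6), Slc3a2 (30.9 ± 2.01), Slc38a2 (28.8 ± 4.45), Bcat1 (10.8 ± 3.35), Bcat2 (6.19 ± 1.05), Glul (6.16 ± 4.39), Slc7a11 (5.33 ± 0.737) and Slc1a5 (3.92 ± 0.514). The first 2, the next 2 and Bcat2, Glul and Slc7a11 did not differ from their neighbours beyond the SD. The carriers and the enzymes are mixed in this order. Slc7a5 and Asns were above 97.2% and 97.0% of tested genes, and Slc1a5 above 46.8%. With dexamethasone Glul reached 23.3 ± 11.2 CPM per kb, between Bcat1 at 9.70 ± 1.36 and Slc38a2 at 30.1 ± 4.15. Whether the authors counted exons or whole genes is not given in the sources used here: per kb of gene span, introns included, Slc38a2 came first (20.7 CPM per kb) and Slc7a11, whose annotated span is 551 kb, last (0.135).

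Genes with the pattern most like that of Glul were sought by the distance between log2 CPM profiles over the 4 libraries, each centred on its mean. The 3 nearest were Tmem252 (distance 0.213), Prg4 (0.392) and Art3 (0.465). Tmem252 had only 4 and 2 counts with vehicle and 26 and 33 with dexamethasone. Prg4, the gene of the lubricant proteoglycan lubricin, had 3.11 and 1.05 CPM in vehicle and 13.1 and 4.37 CPM in dexamethasone libraries. Art3, a gene of the ADP-ribosyltransferase family, had 1.45 and 0.632 CPM in vehicle and 5.37 and 2.14 CPM in dexamethasone libraries. Each shared with Glul both the higher level after dexamethasone and the higher level in replicate 1. Of the other 8 genes Slc7a11 came nearest to Glul, at rank 2162 of 13284. For Slc7a5 the nearest were Tvp23a (0.0152), Irak1 (0.0279) and Babam1 (0.0350), and its partner Slc3a2 ranked 5470. Ranked from Slc3a2, Slc7a11 came at 1073 (distance 0.241) and Slc7a5 at 4070 (0.374). These distances over 4 libraries are descriptions.

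The other genes of amino acid handling were taken from 5 lists. Of 34 further amino acid carriers 25 were tested, and 10 had a positive and 15 a negative log2 fold change, with a median of -0.04. In 4 of them both dexamethasone libraries were above both vehicle libraries and in 5 below, beside 15.0% and 12.9% of all genes tested. In edgeR 0 passed an adjusted p of 0.05 in either direction. An unadjusted p under 0.05 was reached by 3 higher and 0 lower genes, beside 4.09% and 1.69% of all genes tested. The estimates of these 3 were larger than that of Slc7a11. Slc43a2, the gene of the neutral amino acid carrier LAT4, had 38.7 and 42.7 CPM in vehicle and 64.8 and 71.7 CPM in dexamethasone libraries (log2 fold change 0.75, SE 0.138, edgeR adjusted p = 0.251), with 0.74 and 0.75 in the 2 replicate pairs. Slc38a6, a relative of Slc38a2, had 137 and 136 CPM against 207 and 203 CPM (0.58, SE 0.114, edgeR adjusted p = 0.296). Slc25a13, the gene of the mitochondrial aspartate and glutamate carrier citrin, had 4.13 and 5.01 CPM against 6.90 and 6.80 CPM (0.58, SE 0.214, edgeR adjusted p = 0.836). Slc7a3, a carrier of cationic amino acids, had at most 1.39 CPM and a log2 fold change of -0.44 (SE 0.375). The estimate for the LAT4 gene was larger than for either chain of LAT1, a contrast that was not tested. Slc38a3 and Slc38a5 were listed at 0 in all libraries, within runs of 371 and 99 consecutive genes of one strand at 0, and were not read as silent.

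Other enzymes that use or make glutamine and glutamate were set beside Glul. Of 25 listed 23 were tested, 7 with a positive and 16 with a negative log2 fold change, a median of -0.07 and a range from -0.54 to 0.70. Both dexamethasone libraries were above both vehicle libraries in 2 and below in 5, beside 15.0% and 12.9% of all genes tested. In edgeR 0 were called in either direction over all genes. An unadjusted p under 0.05 was reached by 0, where 4.09% of all genes tested were higher and 1.69% lower at that p. Glutaminase 2, encoded by Gls2 and running against glutamine synthetase, had 1.5 and 1.90 CPM in vehicle and 1.07 and 1.26 CPM in dexamethasone libraries. Its log2 fold change was -0.54 (SE 0.330) at 28 to 118 counts per library. Gpt2, the mitochondrial alanine aminotransferase, was at -0.19 (SE 0.133), Oat, the ornithine aminotransferase, at 0.15 (SE 0.154), and Gfpt2, which spends glutamine on hexosamine synthesis, at 0.70 (SE 0.380). Got1 and Aldh18a1 were listed at 0 in all libraries, each within a run of 146 consecutive genes of one strand at 0, and were not read as silent.

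For the breakdown of branched-chain amino acids after the aminotransferase step, 22 of 25 genes were tested, 14 with a positive and 8 with a negative log2 fold change and a median of 0.10. Both dexamethasone libraries were above both vehicle libraries in 4 and below in 4, beside 15.0% and 12.9% of all genes tested. EdgeR called 0 over all genes and 0 at an unadjusted p under 0.05, where 4.09% of all genes tested were higher and 1.69% lower. Acadsb, the dehydrogenase of the isoleucine branch, had 44.8 and 41.6 CPM in vehicle and 55.7 and 53.3 CPM in dexamethasone libraries (log2 fold change 0.34, SE 0.129). Auh, a hydratase of the leucine branch, had 74.4 and 79.8 CPM against 90.0 and 99.3 CPM (0.30, SE 0.128). Within the branched-chain ketoacid dehydrogenase the subunit genes Dbt and Bckdhb were at 0.17 (SE 0.146) and -0.28 (SE 0.201). Acad8, Pccb and Acat1 were listed at 0 within such runs too, of 164, 371 and 371 genes.

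Asns, Slc7a11, Slc7a5, Slc3a2 and Slc38a2 are known targets of ATF4, so other genes of that response were set beside them. Of 30 listed, 5 of them tested also in the lists above, 29 were tested, with 15 positive and 14 negative log2 fold changes, a median of 0.04, and 6 genes above and 6 below without overlap. Such separation held for 15.0% and 12.9% of all genes tested. In edgeR 0 were called over all genes, and 2 higher and 0 lower genes had an unadjusted p under 0.05 (4.09% and 1.69% of all genes tested). Those were Ddit4, an inhibitor of mTORC1 that is also a known glucocorticoid target, with 1.72 and 2.87 CPM in vehicle and 7.20 and 7.91 CPM in dexamethasone libraries (log2 fold change 1.70, SE 0.319, edgeR adjusted p = 0.261), and Vldlr, a lipoprotein receptor gene, with 86.1 and 90.6 CPM against 213 and 147 CPM (1.03, SE 0.214, edgeR adjusted p = 0.322). Cebpb, a transcription factor gene, was at 0.53 (SE 0.203). The 20 cytosolic aminoacyl-tRNA synthetase genes, many of them ATF4 targets as well, lay between -0.09 and 0.18 with a median of 0.03. EdgeR called 0 of them over all genes and 0 at an unadjusted p under 0.05, beside the same 4.09% and 1.69%. Qars, which charges the glutamine tRNA, was at 0.16 (SE 0.149).

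**Figure D5:**
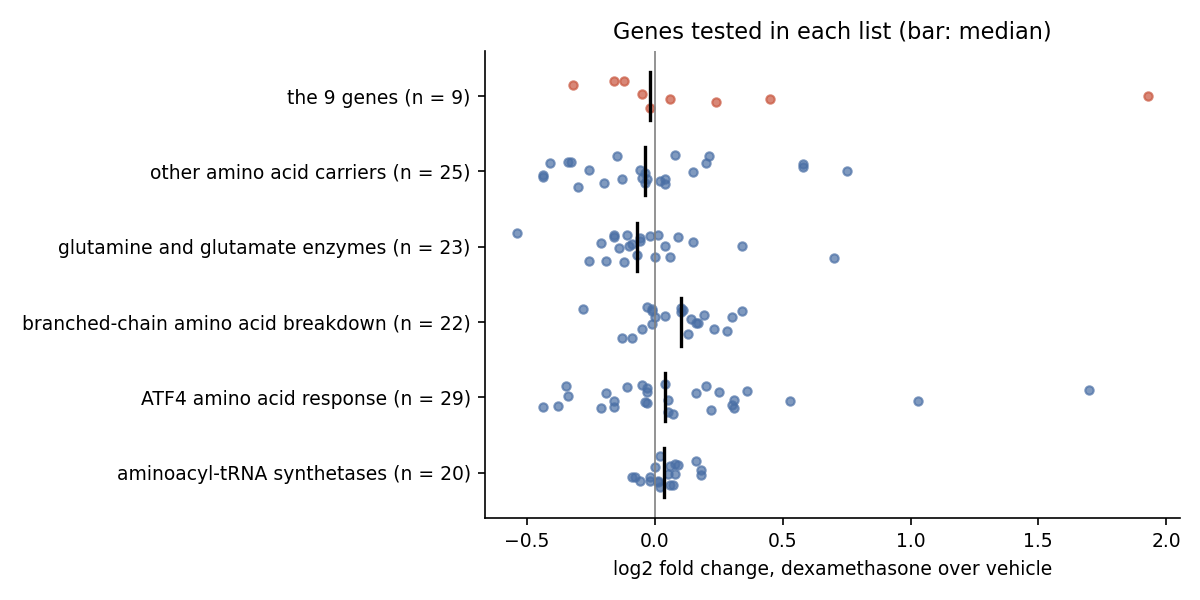
Log2 fold change of dexamethasone over vehicle (horizontal) for every tested gene of the 9 (red) and of the 5 lists (blue), with the median of each as a bar; the vertical scatter within a row has no meaning. Medians lie between -0.07 and 0.10, and Glul at 1.93, Ddit4 at 1.70 and Vldlr at 1.03 lie farthest to the right.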

How the data were processed

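The authors deposited raw read counts per gene for 4 libraries in one table. The submitters' processing notes name TopHat2 2.0.13, SAMtools 1.1, HTSeq 0.6.1, DESeq2 1.18.1 and the mouse build mm9, without roles, and the counted feature and strand setting are not given in the sources used here. Per the labels' protocols, chromatin was pelleted from lysed nuclei before RNA extraction, and both a stranded total RNA and a stranded mRNA kit are named. Of 23333 rows 51 repeated an earlier gene and its counts and were used once. Groups came from sample titles.

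Genes were filtered with filterByExpr (minimum count 10, minimum total 15), which kept 13285. They were scaled by TMM (factors 0.950, 1.08, 0.924 and 1.05 for vehicle 1, vehicle 2, dexamethasone 1 and dexamethasone 2) and tested with edgeR 4.0.16 in R 4.3.3 (quasi-likelihood, group as the only term, two-sided), with Benjamini-Hochberg adjustment over all genes and a threshold of 0.05. There were 2 residual and 2.56 prior degrees of freedom. The SE is the absolute log2 fold change over the square root of F, and 95% intervals use the t distribution. Lengths came from GENCODE M21 by Ensembl identifier and promoters from RefSeq by symbol, both of GRCm38, so genes carry no coordinates of the counted build. Scripts were tested on simulated data.

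Alternatives were other scalings, filters and tests (DESeq2 1.42.0, limma 3.58.1), the replicate number as a block, and leaving out each library. The 9 genes and the lists were chosen with earlier results of these data known. Named were the 9 genes, the 3 nearest patterns, 4 check genes and, per list, genes past the threshold and up to 4 with the largest change among those with 20 counts or more in each library of the higher group and no overlap.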

Additional observations from a re-analysis of the deposited data

How the results depend on the processing

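Beside 5 genes higher and 0 lower (543 and 225 at an unadjusted p under 0.05), testing every gene with a count gave 23 higher, DESeq2's Wald test 235 higher and 53 lower, edgeR's likelihood ratio test 243 and 45, and limma-voom 0 and 0 (540 and 231 unadjusted). With the replicate number as a block, which the labels do not say marks a shared culture or day, there were 913 higher and 768 lower. Across the 4 fits that left out one library, which assume that a lone library varies like the other group, there were 4 to 84 higher and 0 to 109 lower, with 84 and 109 without vehicle replicate 2, and 24 and 28 higher without dexamethasone replicates 1 and 2. Of the 9 genes, DESeq2 called 1 higher (Glul, log2 fold change 1.92, adjusted p = 0.0168) and the replicate block 2 (Glul at 2.03, adjusted p = 0.000326, and Slc7a11 at 0.44, adjusted p = 0.0267), with 1 residual degree of freedom left. Differences between replicates 1 and 2 correlated between the groups across genes (r = 0.734), but only 2 pairs exist. The other 87 of 90 tested alternatives of the 9 genes kept direction and side, and 0 reversed. All 90 used the same 4 libraries. For each of the 9 genes 1 of them only raised the threshold to 0.1 and kept the main estimate, so its direction could not reverse. Without one library Glul ran from 1.34 to 2.93 and Slc7a11 from 0.31 to 0.60, uncalled each time, and 4 genes near 0 changed sign, with ranges of -0.44 to 0.21 for Bcat1, -0.19 to 0.17 for Bcat2, -0.08 to 0.23 for Slc38a2 and -0.30 to 0.17 for Asns. The cause was not tested. With 2 libraries a group, genes that did not pass are not shown to be unchanged.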

Other observations

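Outside amino acid handling, 7 of the 8 genes listed for dividing myoblasts had a positive log2 fold change and 1, Pax7, a negative one. Pax7, the transcription factor of satellite cells and reserve cells, had 32 and 39.0 CPM in vehicle and 17.9 and 22.9 CPM in dexamethasone libraries (log2 fold change -0.80, SE 0.201, edgeR unadjusted p = 0.0128, adjusted p = 0.456). The other 7 had positive log2 fold changes, up to 0.47 (SE 0.301) for the mitotic checkpoint kinase gene Bub1, and in Bub1 and Aurkb both dexamethasone libraries were above both vehicle libraries. Among markers of other cell types, 1 of the 4 tested was positive and 3 were negative. Pdgfra, a receptor gene of fibroblast-like progenitors, had 6.11 and 4.29 CPM in vehicle and 9.14 and 12 CPM in dexamethasone libraries (1.04, SE 0.278, edgeR unadjusted p = 0.0161, adjusted p = 0.503). Dpt, another connective tissue gene, named after its values were seen, was lower without overlap, with 0.697 and 0.421 CPM in vehicle and 0.267 and 0.139 CPM in dexamethasone libraries, from 8 to 16 counts each (-1.51, SE 0.592, edgeR adjusted p = 0.896). Of the 12 myotube markers, 1 had groups that did not overlap: Mymk, which encodes the fusion protein myomaker, with 176 and 173 CPM against 208 and 208 CPM (0.25, SE 0.115, edgeR adjusted p = 1.00). Of all genes tested, 15.0% were higher and 12.9% lower without overlap. None of the markers in these 3 lists passed the threshold over all genes, and their part in the Glul values was not tested.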
